A study of Mus musculus with 24 samples.

Results

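Matrix metalloproteases and the tissue inhibitors that block them were followed in the mouse lung after birth. The 10 genes described are 7 metalloproteases (Mmp2, Mmp3, Mmp9, Mmp11, Mmp12, Mmp14 and Mmp23) and 3 inhibitors (Timp1, Timp2 and Timp3). They were found by matching the RefSeq transcript accession of each array probe to a gene symbol, and they are 10 of the 19722 named genes on the array. All 10 had a probe that passed the filter on dim signal, as did 15895 genes in all. Whole lungs of C57BL/6 mice were sampled at postnatal days 1, 4, 7 and 14 (n = 5 each) and at 6 weeks, given here as day 42 (n = 4). No treatment or mutation is given for any sample. Age is the labelled difference between the groups, and the sex transcripts described below also ran with it. The title of the series speaks of fetal lungs, whereas the label of each sample says postnatal. The labels call the replicates biological but do not say that each came from its own animal, so the p-values measure the spread between these samples.

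Matrix metalloproteases are zinc enzymes that cut collagens, elastin, proteoglycans and other proteins outside the cell. Most are made as inactive proenzymes, and tissue inhibitors of metalloproteases (TIMPs) block the active enzyme by binding its catalytic site. In the rodent lung the weeks after birth are the time when septa grow out and divide the air spaces, and matrix is laid down and cut throughout that growth. The arrays read messenger RNA and give neither the amount of protein nor the activity of an enzyme.

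Each lung gave 1 single-colour array, and a level below is log2 of the processed spot signal minus the 75th percentile of its array, so that 0 is that percentile. Levels of different probes cannot be set against each other, and each gene is therefore compared only with itself. A spot counts as well above background where the scanner's own flag says so. Between 50.4% and 79.7% of spots carried that flag on an array, and the saturation flag was set on 0 spots. The highest share stood on day 14 replicate 3, and no other array exceeded 64.6%. The tests between ages came from 1 limma fit of all 15895 genes, with p-values adjusted by the Benjamini-Hochberg method within a comparison and a threshold of 0.05. A difference is given as later age minus earlier age ± SE.

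All 10 marker genes of lung epithelium lay well above background on all 24 arrays. Along the leading principal component, which held 49.8% of the variance, 5 arrays lay far from the other 19. They were replicates 4 and 5 of day 1, replicates 1 and 3 of day 4, and replicate 4 of day 42. Neither the female transcript Xist nor the male transcript Ddx3y was well above background on any of these 5. Among the other 19, Xist alone was well above background on 2, 2, 0, 2 and 3 arrays at days 1, 4, 7, 14 and 42, and Ddx3y alone on 1, 1, 5, 2 and 0, with both on 1 array of day 14. The readable arrays of day 42 thus all carried the female transcript and those of day 7 the male one, so in comparisons with these ages the part of sex cannot be fully told apart from that of age. Between the 2 day 14 and the 5 day 7 arrays with Ddx3y alone, the difference was 3.69 for Mmp3, 1.45 for Mmp12, 0.66 for Timp3 and -0.90 for Mmp14, and Timp3 alone of these overlapped. Between the 3 day 42 and the 2 day 14 arrays with Xist alone, Mmp9 differed by 1.26 with no overlap. Between the 3 day 42 and the 2 day 1 arrays with Xist alone, the 8 genes past the test with all arrays kept their direction. These arrays were among those that picked the 8 genes. None of the 8 overlapped, but nor did Timp2 (0.40), which had not passed. The share of all genes without overlap was not counted for groups this small, so no conclusion is drawn from overlap in these comparisons. These values within a sex were chosen after the data were seen and carry no test. For 7 of the 10 genes (Mmp2, Mmp9, Mmp11, Mmp14, Mmp23, Timp1 and Timp2) the 5 arrays lay above every other array of their age, by 0.77 to 1.49 in the mean log2 level. The 5 arrays had the lowest 75th percentiles, 476.1 to 979.3 intensity units against 995.5 or more. Their shares of flagged spots were also lowest, 50.4% to 56.0% against 57.0% or more. Unscaled, Timp2 read 62849.8 and 64265.5 on the day 1 arrays set apart, against 63399.8 to 75193.3 on the others. It read 126873 and 69563.3 against 72421.8 to 83708.7 at day 4, and 97059.4 against 60899.1 to 85899.5 at day 42. The part of weak signal here was not tested. Counts are therefore given with and without these 5 arrays. Day 14 replicate 5 also stood between its own group and day 7, and its mean level of 8 cell division genes was 0.14, against -2.01 to -1.75 on the other 4 day 14 arrays. Mean levels of marker lists for tissues next to the lung varied widely between arrays, over -0.59 to 6.15 for 8 cardiac muscle genes and -4.46 to 4.04 for 6 adipocyte genes, and their part in the results was not tested. In whole tissue, fewer cells of a type and less RNA per cell cannot be told apart.

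Most of the 10 genes differed with age, in both directions. By day 42, Mmp3, Mmp12, Mmp9 and Timp3 were higher and Mmp14, Mmp11, Mmp23 and Mmp2 were lower than at day 1. Over any of the 5 ages, 8 of 10 passed the moderated F-test, against 31.8% of all genes tested. Mmp2 (adjusted p = 0.0588) and Timp2 (adjusted p = 0.489) did not. Without the 5 arrays 9 of 10 passed, against 53.9% of all genes, and Timp2 was the exception. The plot of levels by array shows each gene in every sample.

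**Figure D1:**
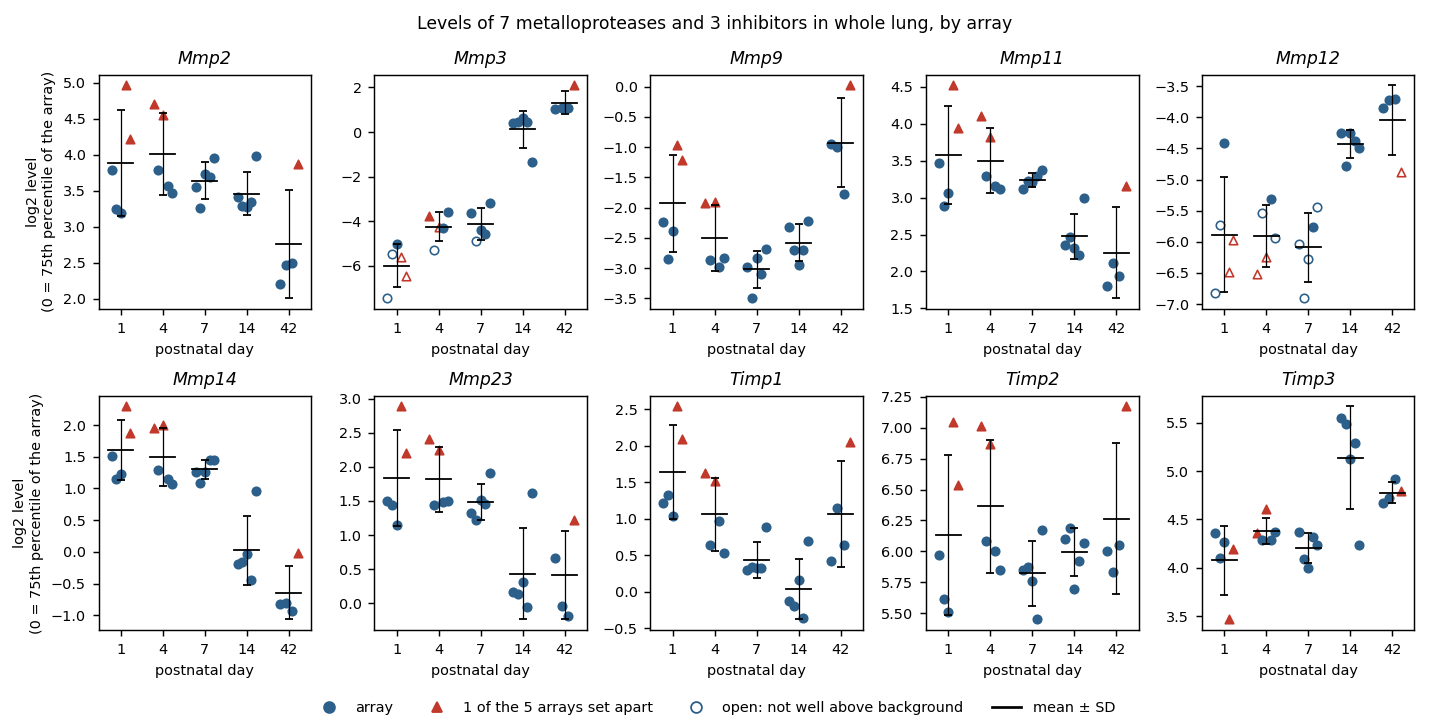
Log2 level of each gene (0 is the 75th percentile of the array) on each of the 24 arrays, by postnatal day, with the mean and SD of each age. Triangles are the 5 arrays set apart and open symbols are spots not well above background. Mmp3 steps up between days 7 and 14 (age means 0.12 at day 14 and -4.14 at day 7), Mmp14 steps down over the same interval, and the triangles top their groups in 7 panels.

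Between neighbouring ages, 4 of the 5 calls fell on the interval between days 7 and 14. Most calls over all genes fell there too, with 1840 genes, against 10, 1 and 587 in the other intervals. Day 4 against day 1 gave 0 of 10 genes past the limma test and 1 (Mmp3) at an unadjusted p under 0.05, where 0.0629% of all genes were called. Day 7 against day 4 gave 0 of 10 by either count, where 0.00629% of all genes were called. The median difference of the 10 was -0.02 and -0.29 in these 2 comparisons, beside -0.00 and -0.23 for all genes. Day 14 against day 7 gave 4 of 10, with Mmp3, Mmp12 and Timp3 higher and Mmp14 lower, where 11.6% of all genes were called, 6.04% higher and 5.54% lower. Day 42 against day 14 gave 1 of 10, Mmp9, which was higher, where 3.69% of all genes were called, 2.18% higher and 1.51% lower. The count for day 42 against day 1 was 8 of 10, 4 in each direction, where 26.7% of all genes were called, 13% higher and 13.7% lower. Mmp12 had 3 flagged arrays over days 1, 4 and 7 and so passed the filter only through days 14 and 42, where it was high. Of the 9 other genes, 3 passed at day 14 against day 7, 7 at day 42 against day 1 and 7 in the F-test. Without the 5 arrays the first 2 counts were 0 and 0, where 0.0818% and 0.0503% of all genes were called, and the last 3 were 6, 5 and 7, where 38.5%, 13.6% and 46.6% were called. With all arrays the 2 ages did not overlap for 4 of 10 genes at day 14 against day 7, as for 16.7% of all genes, for 2 at day 42 against day 14, as for 11.5%, and for 3 at day 42 against day 1, as for 16.5%. The median difference of the 10 genes was -0.00, 0.13 and -0.22 in these last 3 comparisons with all arrays, and that of all genes was 0.02, 0.07 and -0.06.

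**Figure D2:**
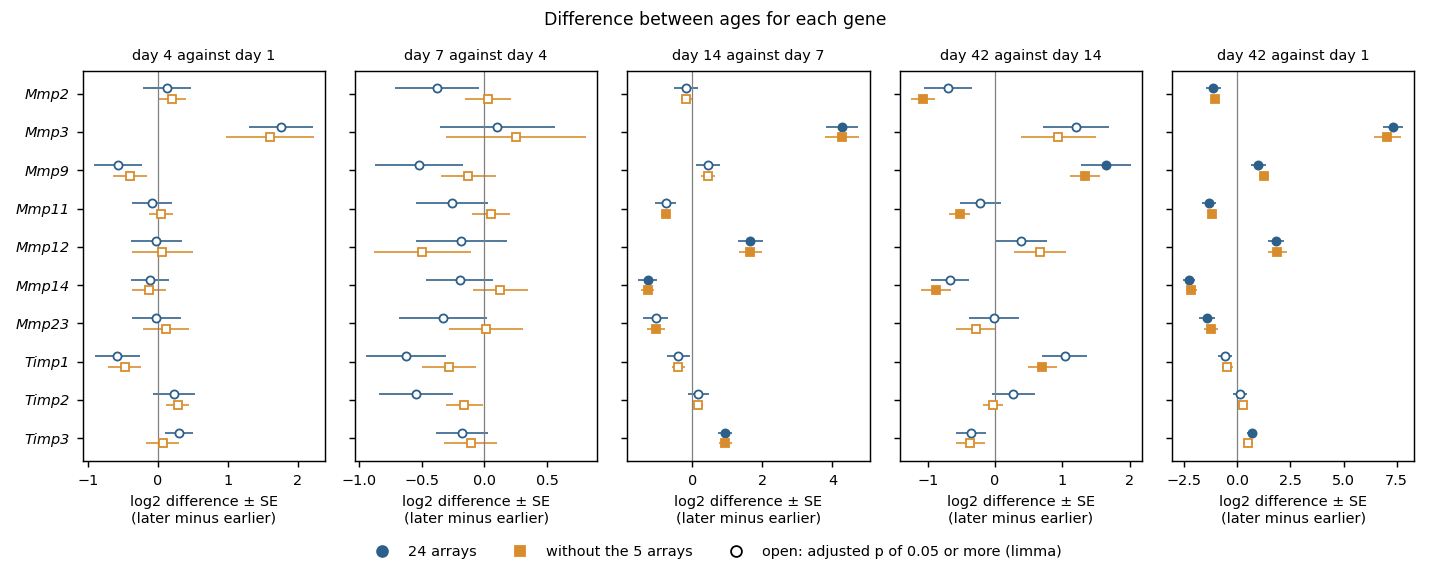
Log2 difference ± SE (later minus earlier age) of each gene in the 5 comparisons, from the limma fit of all 24 arrays (circles) and of the 19 arrays without the 5 set apart (squares). Filled symbols passed the test. Mmp3 (4.26) and Mmp14 (-1.28) are filled in both fits at day 14 against day 7, and most symbols of the comparisons before it are open and near 0.

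The promoters of the 4 genes that passed the test between day 7 and day 14 are shown because these genes changed in the same interval in opposite directions. Each window runs from 250 bases before the annotated gene start to 50 bases after it, on the strand of the gene, from RefSeq on GRCm38.p6. Such windows were given for 8 of the 10 genes, and Mmp12 has 2 starts on the table. Capitals mark 3 motifs that were searched on both strands: TGAGTCA, the binding motif of AP-1, a factor known to act on stromelysin and collagenase genes, TATAAA, the TATA box, and GGGCGG, the GC box.
Mmp3, chr9:7445572-7445871 (+): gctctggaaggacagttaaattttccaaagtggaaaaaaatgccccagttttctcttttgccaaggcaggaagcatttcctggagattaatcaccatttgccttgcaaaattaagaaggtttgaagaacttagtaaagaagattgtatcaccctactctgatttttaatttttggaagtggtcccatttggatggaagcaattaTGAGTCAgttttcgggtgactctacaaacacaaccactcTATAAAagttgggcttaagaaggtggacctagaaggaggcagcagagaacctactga
Mmp12, chr9:7347124-7347423 (+): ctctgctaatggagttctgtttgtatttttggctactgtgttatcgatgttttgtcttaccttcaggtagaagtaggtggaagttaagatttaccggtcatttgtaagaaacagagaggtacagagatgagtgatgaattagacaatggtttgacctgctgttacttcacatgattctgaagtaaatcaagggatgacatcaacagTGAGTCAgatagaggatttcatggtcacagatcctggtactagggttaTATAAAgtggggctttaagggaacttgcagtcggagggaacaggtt
Mmp12, chr9:7344147-7344446 (+): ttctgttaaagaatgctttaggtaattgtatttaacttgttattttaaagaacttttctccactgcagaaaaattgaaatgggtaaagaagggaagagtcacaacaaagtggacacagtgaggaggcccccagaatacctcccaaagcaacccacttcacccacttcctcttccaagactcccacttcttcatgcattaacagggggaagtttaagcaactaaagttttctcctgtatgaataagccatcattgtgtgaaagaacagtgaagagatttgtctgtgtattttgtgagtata
Timp3, chr10:86300162-86300461 (+): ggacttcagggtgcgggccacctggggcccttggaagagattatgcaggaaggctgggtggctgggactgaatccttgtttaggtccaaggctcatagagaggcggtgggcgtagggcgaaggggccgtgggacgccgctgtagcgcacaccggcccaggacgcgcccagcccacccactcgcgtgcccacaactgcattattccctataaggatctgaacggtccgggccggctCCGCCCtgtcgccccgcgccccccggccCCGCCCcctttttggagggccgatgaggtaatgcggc
Mmp14, chr14:54431348-54431647 (+): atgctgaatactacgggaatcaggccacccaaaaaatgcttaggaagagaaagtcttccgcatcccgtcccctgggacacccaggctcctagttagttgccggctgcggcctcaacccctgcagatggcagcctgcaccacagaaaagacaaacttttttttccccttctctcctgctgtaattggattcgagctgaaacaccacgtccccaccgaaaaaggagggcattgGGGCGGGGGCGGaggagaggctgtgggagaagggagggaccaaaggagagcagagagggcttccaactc

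The windows of Mmp3 and of the downstream start of Mmp12 both hold TGAGTCA, which begins 46 and 44 bases before the annotated start. Both also hold TATAAA, which begins 7 bases before that start in Mmp3 and on base 5 after it in Mmp12. Timp3 and Mmp14 hold neither TGAGTCA nor TATAAA and have 2 GC boxes each, which lie on the opposite strand in Timp3 and end to end in Mmp14. The upstream start of Mmp12 holds none of the 3 motifs. Of 32851 windows of this length in the table, 5.2% hold TGAGTCA, 13.6% hold TATAAA and 35.7% hold GGGCGG on either strand. The 3 motifs do not overlap in these windows. A match describes the letters, and no binding was measured.

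Mmp3 encodes stromelysin 1, which cuts proteoglycans and other matrix proteins and can activate other metalloproteases. Its levels were -7.47, -5.47, -5.05, -5.60 and -6.45 at day 1. They were -3.78, -5.28, -4.26, -4.32 and -3.57 at day 4. At day 7 they were -3.63, -4.90, -4.39, -4.59 and -3.19. No later array overlapped with any array of these 3 ages, and day 14 replicate 5 lay closest to them. The day 14 levels were 0.40, 0.44, 0.64, 0.47 and -1.34, the last of them on replicate 5. Day 42 levels were 1.02, 1.08, 1.08 and 2.10, the highest on replicate 4.

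The spot was well above background on 1, 3, 4, 5 and 4 arrays at days 1, 4, 7, 14 and 42, so the earliest levels are mostly near or below what the array can read. Day 14 exceeded day 7 by 4.26 ± 0.46 on the log2 scale (limma adjusted p = 6.23e-06), a 19.2-fold ratio of the mean levels. Within slides 1, 2 and 3 the difference was 3.81, 5.36 and 4.14. Day 42 exceeded day 1 by 7.33 ± 0.48 (limma adjusted p = 1.09e-09), but the spot could be told from background on just 1 of the 5 arrays of day 1. With each day 1 array set at no less than the lowest signal flagged as well above background on it, day 42 was 86.6-fold higher on this scale. It is no firm minimum, as the unflagged spot of day 1 replicate 2 (-5.47) lay above the lowest flagged signal of its array (-6.01). The sizes depend on the processing. Under the alternatives described below, the log2 difference was 3.02 to 4.63 at day 14 against day 7 and 4.32 to 7.36 at day 42 against day 1. In the order of the age means, days 1, 4, 7, 14 and 42, only the step between days 7 and 14 passed the limma test, and the other neighbours had adjusted p = 0.222, 0.875 and 0.22.

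Mmp12 encodes macrophage elastase, which cuts elastin. It was dim throughout, with the spot well above background on 1, 1, 1, 5 and 3 arrays at days 1, 4, 7, 14 and 42. Levels were -4.25, -4.79, -4.25, -4.38 and -4.49 at day 14, against -6.04, -6.91, -6.28, -5.77 and -5.44 at day 7. The 2 ages did not overlap, and the difference was 1.66 ± 0.36 (limma adjusted p = 0.00322), with 1.49, 2.32 and 1.65 within slides 1, 2 and 3. As 1 of 5 day 7 spots was above background, the difference is partly set by dim signal. With day 7 arrays set at no less than their lowest flagged signal, day 14 was 2.33-fold higher. This is no firm minimum, as the unflagged spot of day 7 replicate 5 (-5.44) lay above the lowest flagged signal of its array (-5.51). Levels at day 42 were -3.85, -3.73, -3.71 and -4.87, against -6.82, -5.73, -4.42, -6.48 and -5.97 at day 1. That difference was 1.84 ± 0.38 (limma adjusted p = 0.000824), again against 1 of 5 spots above background at day 1. With day 1 arrays set in the same way the ratio was 2.0-fold. It is no firm minimum, as the day 42 mean includes replicate 4, which was not well above background. On slide 3 the difference ran the other way, at -0.46, where day 42 is replicate 4 alone. With normexp background correction, which compresses dim signal, the differences shrank to 0.57 (limma adjusted p = 0.0556) and 0.27 (limma adjusted p = 0.364) and neither passed. Day 4 averaged -5.91 ± 0.49 (SD, n = 5), within the range of day 1. A second probe for Mmp12 was well above background on 0 arrays.

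The levels of macrophage genes stand beside those of Mmp12. The mean log2 level of 9 macrophage genes on the array, each well above background on all 24 arrays, was 2.44 to 2.86 at day 14, against 1.32 to 1.94 at day 7, and 3.19 to 3.34 at day 42, against 1.22 to 2.01 at day 1. Of these 9, 4 were higher at day 14 than at day 7 and 8 were higher at day 42 than at day 1 by limma, and without the 5 arrays the counts were 8 and 9. The part of macrophage number in the Mmp12 result was not tested.

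Mmp14 encodes a membrane-anchored collagenase that also activates the latent Mmp2 enzyme. Levels at day 14 were -0.19, -0.16, -0.04, -0.44 and 0.96, against 1.27, 1.08, 1.26, 1.44 and 1.45 at day 7. The groups did not overlap although replicate 5 of day 14 lay close to day 7. The difference was -1.28 ± 0.27 (limma adjusted p = 0.0024), with -1.55, -1.38 and -0.89 within slides 1, 2 and 3. At day 1 the levels were 1.51, 1.15, 1.22, 2.30 and 1.87, and at day 4 they were 1.96, 1.30, 2.01, 1.15 and 1.07. Day 42 levels were -0.83, -0.80, -0.93 and -0.02, all below every array of days 1, 4 and 7. Against day 1, day 42 was lower by 2.26 on the log2 scale (difference -2.26 ± 0.29, limma adjusted p = 2.59e-06), a 4.77-fold ratio of day 1 over day 42, with -2.73, -2.38 and -1.24 within slides. Day 42 against day 14 gave -0.67 ± 0.29 (limma adjusted p = 0.262), and -0.88 (limma adjusted p = 0.0134) without the 5 arrays.

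Mmp2 encodes gelatinase A, which cuts basement membrane collagen and denatured collagens, and Timp2 both inhibits it and links its proenzyme to Mmp14 at the cell surface. Mmp2 averaged 3.88 ± 0.74, 4.02 ± 0.57, 3.64 ± 0.25, 3.46 ± 0.30 and 2.76 ± 0.76 at days 1, 4, 7, 14 and 42 (SD, n = 5 each and 4 at day 42). Levels at day 42 were 2.20, 2.47, 2.50 and 3.88, against 3.79, 3.25, 3.20, 4.97 and 4.22 at day 1. The 3 lower day 42 arrays lay below all day 1 arrays and the 1 set apart did not. The difference was -1.12 ± 0.36 (limma adjusted p = 0.0222), with -2.18, -1.25 and 0.68 within slides 1, 2 and 3. It did not pass without any one of day 1 replicates 4 and 5 or day 42 replicates 1, 2 and 3 (limma adjusted p = 0.0522 to 0.0917). The difference without the 5 arrays together was -1.02 (limma adjusted p = 0.000623), and day 42 against day 14 then also passed at -1.07 (limma adjusted p = 0.00123), against -0.70 (limma adjusted p = 0.405) with all arrays.

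With all arrays, the brighter probe of Timp2 did not pass any comparison in the limma fit. Its age means were 6.13 ± 0.65, 6.37 ± 0.54, 5.82 ± 0.26, 5.99 ± 0.19 and 6.27 ± 0.61 at days 1, 4, 7, 14 and 42 (SD, n = 5 each and 4 at day 42), and every pair of ages overlapped. The range of these means was wider than that of 24.1% of the genes tested. A 95% interval of -0.52 to 0.79 on the log2 scale stood around the difference of 0.13 for day 42 against day 1. Under other scalings it did pass: at day 42 against day 1 the difference was 0.46 with quantile normalization (limma adjusted p = 0.00357) and 0.47 in the authors' deposited table (limma adjusted p = 0.000286). At day 14 against day 7 it passed with quantile normalization, the authors' table and array weights (0.32, 0.26 and 0.27, limma adjusted p = 0.0456, 0.0317 and 0.0126). A second, dimmer probe had 0.39 for day 14 against day 7 and 0.51 for day 42 against day 1 without the 5 arrays (limma adjusted p = 0.0183 and 0.0139), where the brighter probe had 0.17 and 0.27 (limma adjusted p = 0.318 and 0.208).

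Mmp11 encodes stromelysin 3, which furin activates inside the secretory pathway. Levels at day 42 were 1.80, 2.12, 1.93 and 3.16, against 3.47, 2.89, 3.07, 4.52 and 3.95 at day 1. Only replicate 4 of day 42 reached the range of day 1. The difference was -1.32 ± 0.31 (limma adjusted p = 0.00213), with -2.19, -1.39 and 0.10 within slides 1, 2 and 3. At day 14 the levels were 2.36, 2.47, 2.32, 2.23 and 3.00, against 3.11, 3.23, 3.21, 3.29 and 3.37 at day 7. These groups did not overlap, but the difference of -0.77 ± 0.29 did not pass (limma adjusted p = 0.0952). It passed without the 5 arrays (limma adjusted p = 0.000386) and without any one of day 1 replicate 4, day 14 replicate 5 and day 42 replicate 4 (limma adjusted p = 0.046, 0.049 and 0.0486). At day 4 Mmp11 averaged 3.50 ± 0.44 (SD, n = 5). The other Mmp11 probe had -0.76 at day 14 against day 7 (limma adjusted p = 0.0816) and -1.29 at day 42 against day 1 (limma adjusted p = 0.00161).

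Mmp23 encodes a membrane-anchored protease that lacks the hemopexin domain of most of the family. Its age means were 1.84 ± 0.70, 1.82 ± 0.47, 1.49 ± 0.26, 0.44 ± 0.67 and 0.42 ± 0.65 at days 1, 4, 7, 14 and 42 (SD, n = 5 each and 4 at day 42). Day 14 replicate 5, at 1.62, lay within the range of day 7, and the other 4 day 14 arrays, from -0.05 to 0.31, lay below it. Levels at day 42 were 0.66, -0.04, -0.18 and 1.22, against 1.5, 1.43, 1.15, 2.89 and 2.20 at day 1, and only replicate 4 of day 42 reached the range of day 1. Day 42 was below day 1 by a difference of -1.42 ± 0.37 (limma adjusted p = 0.00563), with -1.53, -1.93 and 0.07 within slides 1, 2 and 3. Day 14 against day 7 gave -1.05 ± 0.35 (limma adjusted p = 0.0539). That difference passed without the 5 arrays (limma adjusted p = 0.00398) and without day 14 replicate 5, where it was -1.35 (limma adjusted p = 0.00574). It also passed without any one of day 1 replicates 3 and 4 and day 42 replicate 4 (limma adjusted p = 0.0275 to 0.0488), and with the replicate number as a block (limma adjusted p = 0.0497).

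Fibroblast and myofibroblast genes stand beside Mmp14, Mmp2, Mmp11 and Mmp23. The mean log2 level of 10 such genes was 3.71 to 4.27 at day 42, against 4.64 to 5.33 at day 1, and 4.08 to 4.59 at day 14, against 4.70 to 4.83 at day 7. Of these 10, 7 were lower and 1, Pdgfra, was higher at day 42 than at day 1 by limma. At day 14 against day 7, 1 was lower and 1 was higher. With the 5 arrays left out, 8 were lower and 1 was higher at day 42 against day 1, and 6 were lower and 1 was higher at day 14 against day 7. The mean level of 8 cell division genes was -1.76 to -1.09 at day 42, against 1.91 to 2.21 at day 1. Their part in the results was not tested.

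Mmp9 encodes gelatinase B, which neutrophils and macrophages store or secrete. Day 42 levels were -0.95, -1.0, -1.78 and 0.02, against -2.32, -2.70, -2.95, -2.69 and -2.23 at day 14. All day 42 arrays lay above all day 14 arrays. The difference was 1.65 ± 0.37 (limma adjusted p = 0.0112), a 3.14-fold ratio of the mean levels, with 1.37, 1.30 and 2.61 within slides 1, 2 and 3. Without day 42 replicate 4, the highest array, it was 1.33 (limma adjusted p = 0.0552), and without all 5 arrays it was 1.33 (limma adjusted p = 0.000941).

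The age means of Mmp9 were lowest at day 7 (-3.02 ± 0.31, SD, n = 5), followed by day 14 (-2.58 ± 0.30), day 4 (-2.50 ± 0.54), day 1 (-1.93 ± 0.81) and day 42 (-0.93 ± 0.74, n = 4). Neighbours in that order below day 42 overlapped in their arrays. Day 14 exceeded day 7 by 0.45 ± 0.35 (limma adjusted p = 0.539), and that difference passed with array weights (0.49, limma adjusted p = 0.00487) and with the slide as a block without the 5 arrays (0.52, limma adjusted p = 0.0231). Day 42 exceeded day 1 by 1.00 ± 0.37 (limma adjusted p = 0.047), close to the threshold. That call held in 7 of 24 refits that each left out 1 array, with an adjusted p of 0.14 without day 42 replicate 4, 0.122 without day 1 replicate 2 and at most 0.0953 without any other array. Without the 5 arrays it was 1.25 (limma adjusted p = 0.000517).

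Of 9 neutrophil genes tested, 0 passed limma in either direction at day 42 against day 14, and 1 was higher and 2 were lower at day 42 than at day 1. The mean log2 level of the 9 was -0.89 to 0.32 at day 42, against -0.79 to 0.17 at day 14. Macrophage genes gave 1 of 9 higher at day 42 than at day 14. In that comparison 5 of 9 macrophage genes were higher and 2 of 9 neutrophil genes were lower without the 5 arrays. The part of either cell type in the Mmp9 result was not tested.

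Timp1 is a soluble inhibitor that blocks most secreted metalloproteases and only weakly the membrane-anchored ones. It passed the F-test (adjusted p = 0.0033) but none of the 5 comparisons with all arrays. Its levels were 1.22, 1.32, 1.04, 2.54 and 2.09 at day 1 and 1.63, 0.64, 1.52, 0.97 and 0.54 at day 4. They were 0.30, 0.34, 0.33, 0.33 and 0.88 at day 7 and -0.12, -0.20, 0.16, -0.35 and 0.70 at day 14. The day 42 levels were 0.43, 1.14, 0.65 and 2.05. Age means thus ran downward over the first 4 ages and upward to day 42, a shape that the limma steps between neighbours did not pass (the lowest adjusted p was 0.0997, for day 42 against day 14). Day 42 exceeded day 14 by 1.03 ± 0.34 with all arrays and by 0.70 (limma adjusted p = 0.0398) without the 5 arrays. Day 42 against day 1 gave -0.57 ± 0.34 (limma adjusted p = 0.239), and -0.90 (limma adjusted p = 0.0359) without day 42 replicate 4.

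Timp3 is the inhibitor that binds to the matrix, and it also blocks several ADAM proteases. Levels at day 14 were 5.55, 5.49, 5.12, 5.29 and 4.23, against 4.37, 4.09, 4.00, 4.32 and 4.24 at day 7. Replicate 5 of day 14 lay within the range of day 7 and the other 4 lay above it. The difference was 0.93 ± 0.21 (limma adjusted p = 0.00338), with 1.24, 1.29 and 0.52 within slides 1, 2 and 3, and it was 1.16 (limma adjusted p = 2.47e-05) without replicate 5. When arrays were scaled on their median it was 0.74 (limma adjusted p = 0.0693). On the 5 arrays set apart, Timp3 was 3.47 and 4.20 at day 1, 4.36 and 4.61 at day 4, and 4.80 at day 42. Only day 4 replicate 3, at 4.61, topped its age, whereas for Timp1 and Timp2 all 5 lay above the other arrays of their age.

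At day 42 the levels of Timp3 were 4.67, 4.72, 4.92 and 4.80, against 4.36, 4.10, 4.27, 3.47 and 4.20 at day 1. The groups did not overlap. The difference was 0.70 ± 0.22 (limma adjusted p = 0.0192), with 0.75, 0.67 and 0.53 within slides. Day 4 levels were 4.36, 4.29, 4.61, 4.28 and 4.37, close to those of days 1 and 7. The difference between days 42 and 1 did not pass without the 5 arrays (0.53, limma adjusted p = 0.0802), without day 1 replicate 4 (0.54, limma adjusted p = 0.0503), or without day 42 replicate 3 (0.65, limma adjusted p = 0.0585).

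The rest of the family split in how well it could be read. Of 17 other metalloprotease and inhibitor genes listed, 16 were on the array and 8 had a probe that passed the filter, 6 of them well above background on all 24 arrays. The 8 others were so on at most 2 arrays each. On day 14 replicate 3, 12 of the 16 were well above background, against at most 8 on any other array. At day 42 against day 1, Mmp13, the rodent interstitial collagenase, was higher by 1.86 ± 0.37 (limma adjusted p = 0.000457), and Mmp17, a membrane-anchored protease, was lower by a difference of -0.996 ± 0.345 (limma adjusted p = 0.0347). The other 6 did not pass, and 0 of 8 passed in the 4 comparisons of neighbouring ages. Without the 5 arrays Mmp13, Mmp24 and Timp4 were higher at day 14 against day 7 (limma adjusted p = 0.00417, 0.00471 and 0.0077), and Mmp13 and Mmp24 were lower at day 42 against day 14. At day 42 against day 1, Mmp13 and Mmp25 were then higher and Mmp17 was lower. Mmp25 passed the filter only through 1 array of day 14 and 3 of day 42, and 0 of its day 1 spots were well above background. Its age mean was high only at day 42 (-4.98), against -6.37 at day 14 and -6.07 at day 1. With the day 1 arrays set at no less than their lowest flagged signal, its ratio over all arrays was 1.34-fold. Mmp13 was well above background on 1, 3, 5, 5 and 3 arrays at days 1, 4, 7, 14 and 42, with age means of -6.34, -5.82, -4.26, -3.36 and -4.48. Its highest mean thus stood at day 14, unlike that of Mmp3, whose highest mean stood at day 42.

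Mmp3 and Mmp12 lie in a cluster of 10 metalloprotease genes on chromosome 9, in the order Mmp13, Mmp12, Mmp1b, Mmp3, Mmp1a, Mmp10, Mmp8, Mmp27, Mmp20 and Mmp7 of the RefSeq annotation. Of the 9 on the array, 4 passed the filter: Mmp13, Mmp12, Mmp3 and Mmp8, which encodes neutrophil collagenase. Mmp8 was well above background on all 24 arrays and did not differ past the test in any comparison, with 0.11 ± 0.25 for day 42 against day 1 (limma adjusted p = 0.796). Mmp10 and Mmp20 were well above background on 0 arrays, and Mmp1a, Mmp1b and Mmp7 on at most 2. Thus Mmp1b and Mmp1a, on either side of Mmp3, were read on 1 array each while Mmp3 was read on all day 14 and day 42 arrays.

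Genes that activate metalloproteases, clear them or hold them at the cell surface formed the next list. Of 18 listed, 17 passed the filter, and at day 14 against day 7, 5 were lower and 0 were higher. Thbs2, a thrombospondin known to clear Mmp2 by uptake, was lower by a difference of -2.83 ± 0.57 (limma adjusted p = 0.00157), and A2m, alpha-2-macroglobulin, which traps proteases, by -1.10 ± 0.33 (limma adjusted p = 0.0313). Serpine2, Thbs1 and Plat were the other 3. At day 42 against day 1, 5 were lower and 2 were higher. Thbs2 had -3.91 ± 0.60 (limma adjusted p = 2.91e-05). A2m stood well above background on 0 day 42 arrays and on 4 of the 5 from day 1. By day 42 it was 2.51-fold lower on the bound given below, which takes the unflagged day 1 spot as measured. Day 42 against day 14 had A2m alone past the test, 2.07-fold lower at day 42 on the same bound. The bound sets the mean of the brighter age against the lowest signal that the arrays of the dimmer age flagged as well above background. It is no firm minimum, as the unflagged Mmp12 spot of day 42 replicate 4 (-4.87) lay above the lowest flagged signal of its array (-4.92).

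Reck, a membrane-anchored inhibitor of metalloproteases, was higher at day 42 than at day 1 by 0.65 ± 0.14 (limma adjusted p = 0.00141). Furin, which activates Mmp11 and Mmp14, had -0.25 ± 0.34 in that comparison (limma adjusted p = 0.639). Without the 5 arrays the counts were 4 higher and 7 lower at day 14 against day 7, and 3 higher and 5 lower at day 42 against day 1. In day 4 against day 1 and day 7 against day 4, 0 of 17 passed limma.

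All 9 ADAM proteases listed as targets of the inhibitors passed the filter. At day 14 against day 7, Adam28, a protease of leukocytes and epithelium, was higher by 0.92 ± 0.30 (limma adjusted p = 0.0498), while Adam19 and Adam33 had differences of -0.92 ± 0.20 and -0.58 ± 0.19 (limma adjusted p = 0.00292 and 0.0459). At day 42 against day 1, Adam28 (1.99 ± 0.32) and Adam8 (1.22 ± 0.27) were higher and Adam12 (-1.60 ± 0.32) and Adam19 (-0.93 ± 0.21) were lower. Adam17, which releases tumour necrosis factor and is blocked by Timp3, had 0.09 ± 0.22 for day 42 against day 1 (limma adjusted p = 0.79). The counts without the 5 arrays were 1 higher and 3 lower at day 14 against day 7, 1 higher at day 42 against day 14, and 2 in each direction at day 42 against day 1. The map of age means shows the 3 lists beside the 10 genes.

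**Figure D3:**
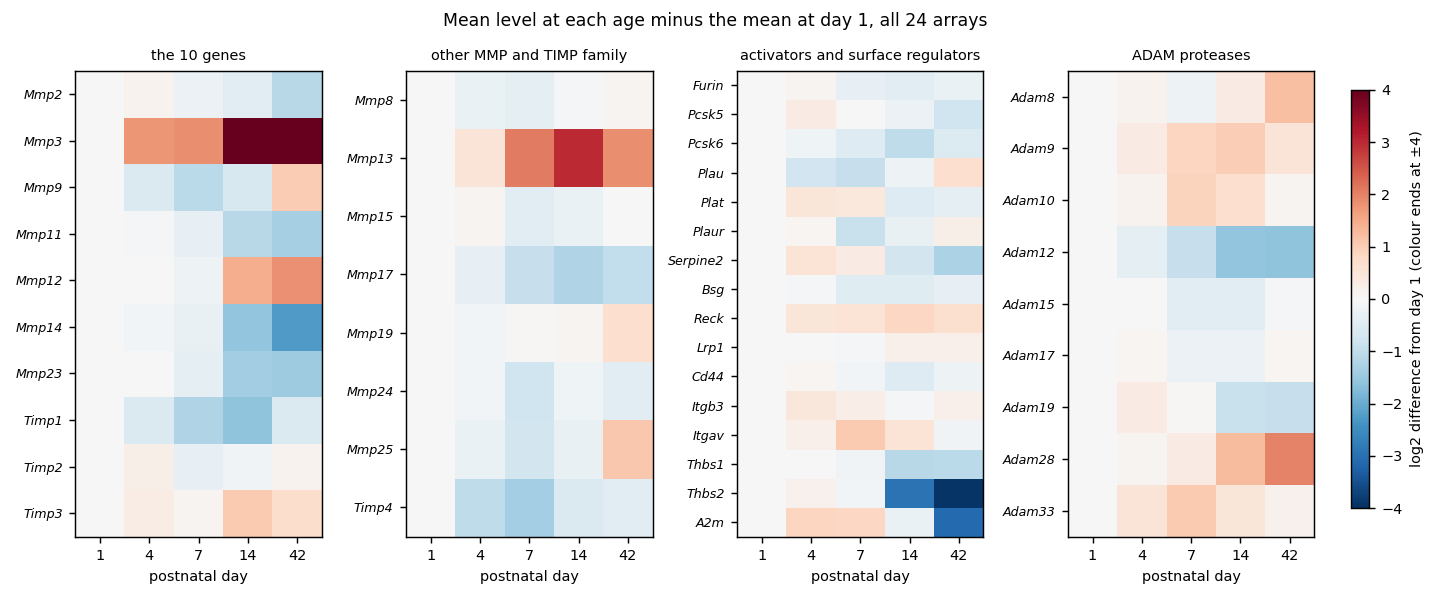
Mean log2 level at each postnatal day minus the mean at day 1, over all 24 arrays, for the 10 genes and for genes of 3 related lists that passed the filter. Red is higher and blue is lower than day 1, and the colour ends at a difference of 4. Mmp3 (7.33 at day 42) exceeds the scale, and Thbs2 (-3.91) nearly reaches its lower end. A2m was well above background on 0 arrays at day 42, so its colour there does not measure the size of its fall.

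The genes whose profile of age means was closest were found for the 3 members with the widest range, Mmp3, Mmp14 and Mmp9. Likeness was the root mean square difference of the 5 age means on the log2 scale after each gene's own mean was removed, so that it describes 5 points and carries no test. For Mmp3 the closest were Inmt (0.25), a methyltransferase gene of lung, Klra4 (0.40), a receptor gene of natural killer cells, and Lrat (0.52), which makes the storage form of retinol. Inmt was well above background on all 24 arrays, whereas Klra4 was so on 0 arrays at days 1 and 4. For Mmp14 the closest were Gli1 (0.04), the transcription factor gene that hedgehog signals switch on, Rcor2 (0.09), a corepressor gene, and Podxl2 (0.10), all of them well above background on all 24 arrays. For Mmp9 they were Muc20 (0.12), a mucin gene, Mmp25 (0.15), a membrane-anchored protease of neutrophils, and Spire2 (0.16). Mmp25 was well above background on 0, 0, 0, 1 and 3 arrays at days 1, 4, 7, 14 and 42, and Spire2 on 0, 1, 0, 0 and 3, so that the earlier means of both lie mostly below what the array reads.

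**Figure D4:**
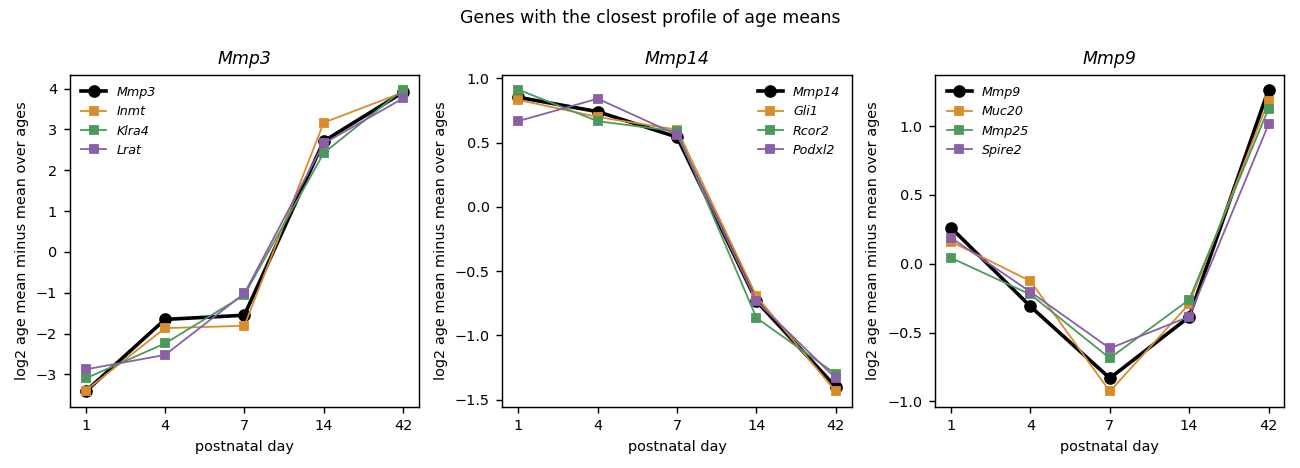
Age means (log2, each gene's mean over the ages removed) of Mmp3, Mmp14 and Mmp9 in black and of the 3 genes closest to each in colour, by postnatal day. Gli1 follows Mmp14 within a root mean square difference of 0.04, and the genes beside Mmp3 lie 0.25 to 0.52 from it.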

How the data were processed

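Total RNA of 24 lungs was labelled with Cy3 and read on single-colour Agilent arrays, 8 to a slide on 3 slides, each slide holding every age. The replicate number of 1 day 14 sample differs between its title (4) and its source name (3), and the title was followed. The deposited scans give for each spot a processed signal, an intensity with background already subtracted. The software was Agilent Feature Extraction, version 10.7.3.1 in the file headers and 10.7.1.1 in the submitters' processing notes. The deposited scans also give the median intensity of each spot and of its local background, and, as other columns, flags of 0 or 1 for signal well above background, saturation and uneven spots. The authors' deposited table of log2 values covers 52095 probes and was made by a method not given in the sources used here, with a correlation of 0.986 or more between each array and its processed signal. It served as an alternative.

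Processed signals were scaled on the 75th percentile of each array (476.1 to 1652.7 intensity units) and taken as log2. Spots flagged as uneven, and all control spots, were removed, and 138 of 55681 probes had no usable spot on some array. Of 32260 probes with a RefSeq accession, 25998 received a symbol from the RefSeq table (GRCm38.p6), which served for names and gene order only. A gene was represented by its brightest probe and tested if the flag was set for it on 4 or more arrays. The fit used limma 3.58.1 (R 4.3.3) and a mean for each age. Simulated data for day 14 against day 7 held 15895 genes, of which 100 were changed 2-fold and 100 were changed 4-fold. Of these changes 42% and 88% were recovered, with 8 false calls. The figures describe the simulation and are not rates for the real arrays, where 1840 genes were called in that comparison. Whether they hold with shifts shared by a whole array, as on the arrays set apart, was not tested. The number of arrays limits the precision.

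The 10 genes, the 3 lists of related genes and the 9 marker lists were chosen with earlier results of these data known. All 10 genes are named, and from each related list up to 2 of the largest rises and falls past the test in a comparison, with a few others, chosen after their values were seen, given for their role. The values of 1 gene of these lists are not reported here. Pairs of ages sharing an age share its arrays. Alternatives were another background correction, scaling or filter, the authors' table, the mean of a gene's probes, the compared ages alone, array weights, slide or replicate blocks, and leaving out arrays. The slide block without the 5 arrays was added after the data were seen.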

Additional observations from a re-analysis of the deposited data

Results flagged for a closer look

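In each group of 4 or 5 arrays the highest and the lowest level of each of the 10 genes was compared with its nearest neighbour, and 10 of 50 such groups held an array whose gap exceeded Dixon's critical value. Chance alone flags about 1 in 20. Day 14 replicate 5 accounted for 4 of them, with log2 levels of 3.98 for Mmp2, -1.34 for Mmp3, 0.96 for Mmp14 and 1.62 for Mmp23, each on the side of day 7. Day 42 replicate 4 accounted for 4, with 2.10 for Mmp3, -4.87 for Mmp12, -0.0195 for Mmp14 and 7.17 for Timp2. The remaining 2 were day 7 replicate 5 for Timp1 (0.88) and day 4 replicate 3 for Timp3 (4.61).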

How the results depend on the processing

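With all arrays 0, 0, 4, 1 and 8 of the 10 genes passed at day 4 against day 1, day 7 against day 4, day 14 against day 7, day 42 against day 14 and day 42 against day 1. Refits that left out 1 array each gave 0 to 0, 0 to 0, 4 to 6, 0 to 1 and 6 to 8, and 8 to 9 in the F-test. The 0 at day 42 against day 14 came without day 42 replicate 4. At day 7 against day 4, array weights gave 1. At day 14 against day 7 the count was 7 with quantile normalization, the authors' table, without 6 arrays (the 5 and day 14 replicate 5) and with a slide block without the 5, 9 with array weights, and 2 with a filter on all 24 arrays, which leaves out Mmp3 and Mmp12. At day 42 against day 14 it was 2 with normexp, 3 with quantile normalization and with the slide block without the 5, 5 with the authors' table and without the 5, 6 without 6 arrays and 7 with array weights. At day 42 against day 1 it was 5 after scaling on the median, and 3 when only the compared ages were fitted, which lost Mmp2, Mmp9, Mmp11, Mmp23 and Timp3. Normexp lost Mmp12 at day 14 against day 7, and Mmp9 and Mmp12 at day 42 against day 1. Scaling on the median lost Timp3 at day 14 against day 7. Neither added a gene in these comparisons. The causes were not tested. Mmp3 and Mmp14 passed at day 14 against day 7 and at day 42 against day 1 under every alternative that tested them, and no alternative turned a call round.

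Same-numbered arrays of different ages had correlations of -0.85 to 0.88 (median -0.01) in their deviations from the age means, and 4 of 24 arrays correlated best with their own number, so the numbers were not taken to pair them. With the replicate block the counts were 0, 0, 5, 1 and 8, and 8 in the F-test.

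Over all genes the counts called were 10, 1, 1840, 587 and 4251. They were 2, 3, 1537, 468 and 3916 with normexp, 32, 6, 2856, 973 and 5266 with quantile normalization, and 99, 20, 3561, 1525 and 5989 with the authors' table. Median scaling gave 4, 0, 1304, 494 and 3239, the compared ages alone 0, 0, 4932, 206 and 2175, and the mean of a gene's probes 5, 0, 1900, 515 and 4274. Leaving out the 5 arrays gave 13, 8, 6125, 2154 and 7408, leaving out 6 gave 260, 26, 7103, 2261 and 7702, array weights 471, 4550, 9608, 4957 and 8268, and the slide block without the 5 gave 9, 8, 6061, 1856 and 7141. Leaving out 1 array gave 4 to 49, 1 to 13, 1347 to 2371, 359 to 871 and 3495 to 5850. Median scaling moved the median difference of all genes to -0.17 at day 14 against day 7, against 0.02 with the 75th percentile, and to 0.30 at day 42 against day 14, against 0.07. The share of calls that were higher was then 31.5% and 78.9%, against 52.2% and 59.1%.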
